A study of Mus musculus with 2 samples.

Results

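Muscle fibres take up glucose, store it as glycogen and break it down to pyruvate and lactate, and the 35 genes described here cover that route. They are 4 genes of glucose uptake, 9 of upper glycolysis with fructose bisphosphatase, 5 of lower glycolysis, 6 of lactate and glycerol phosphate handling, 4 of glycogen breakdown and 7 of glycogen synthesis and targeting. They were chosen by symbol. The 35 symbols matched 36 of the 32285 rows of the count tables, since *Aldoa* has a pair of rows with different identifiers.

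The data are single-nucleus RNA counts from tibialis anterior (TA) muscle of male mice at 6 weeks. One library, labelled WT, is M-*Bcl6* WT muscle from *Myf6*-Cre+ *Bcl6* wt/wt mice, and the other, labelled KO, is M-*Bcl6* KO muscle from their *Myf6*-Cre+ *Bcl6* fl/fl littermates. *Myf6*-Cre acts in the muscle lineage, and the controls carry the Cre as well. Each library pooled the right and left TA of 2 mice, and nuclei were sorted for a DNA dye. With 1 library per genotype, library and genotype cannot be told apart, no p-value was computed, and every interval given is a 95% interval for counting error only.

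Glycolysis in working muscle starts from glucose 6-phosphate, which comes either from blood glucose through GLUT4 and hexokinase 2 or from glycogen through glycogen phosphorylase. Phosphorylase is switched on by phosphorylase kinase, a complex of alpha, beta, gamma and calmodulin subunits that responds to calcium and to adrenaline. Fast IIb fibres are known for high glycolytic capacity and IIa fibres for oxidative metabolism, with IIx fibres between them. Pyruvate is turned to lactate by lactate dehydrogenase, whose A chain prevails in glycolytic tissue and whose B chain prevails in oxidative tissue such as heart.

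The deposited tables held 3798 barcodes and 11974138 unique molecular identifiers (UMIs, each standing for 1 RNA molecule) in the WT-labelled library, and 4096 barcodes and 12026013 UMIs in the KO-labelled library. After filtering, 3674 and 3944 nuclei were kept, of which 2408 (65.5%) and 3085 (78.2%) were myonuclei by the summed level of 10 muscle markers. Levels are UMI counts scaled by the total (CPM) over all myonuclei of a library or of a fibre type, out of 8832708 myonuclear UMIs in the WT-labelled library and 9625965 in the KO-labelled library. *Bcl6* itself went against the labels. Its 1475 UMIs gave 167 CPM in the WT-labelled library and its 4832 UMIs gave 502 CPM in the KO-labelled library, a log2 ratio of 1.59 with intervals of 159 to 176 CPM and 488 to 516 CPM. The counts cover the whole gene and do not resolve the floxed exons. *Socs2*, a gene that BCL6 is known to repress, had 71.7 CPM (66.2 to 77.5) in the WT-labelled library and 383 CPM (371 to 395) in the KO-labelled library. The noncoding RNAs *Meg3*, *Rian* and *Mirg* were higher in the KO-labelled library too, with log2 ratios of 5.76, 5.79 and 5.55, and these 4 genes were picked with their values known. An exchange of labels was not tested.

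Promoter sequence of 5 members is shown because these genes mark the main patterns. *Pfkfb3* and *Phka1* were high in IIb myonuclei, *Ldhb* was high in IIa myonuclei, *Fbp2* was higher in the KO-labelled library, and *Pfkm* was the single member with the BCL6 consensus. Each line gives the 250 bases before a RefSeq transcription start on the strand of the gene, in GRCm38.p6. Capitals mark CACGTG in *Pfkfb3* and *Fbp2*. In *Phka1* and *Ldhb* they mark CTA and TAG set apart by 4 bases of any kind (the spaced motif). In *Pfkm* they mark TTCNNNGAA, and the opposite strand reads TTCCTNGAA there.
Pfkfb3 second start: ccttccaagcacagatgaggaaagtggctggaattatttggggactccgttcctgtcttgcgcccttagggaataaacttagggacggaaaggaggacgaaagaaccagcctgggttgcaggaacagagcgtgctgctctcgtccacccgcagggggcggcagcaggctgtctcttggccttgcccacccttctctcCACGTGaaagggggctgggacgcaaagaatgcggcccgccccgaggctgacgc
Phka1 start: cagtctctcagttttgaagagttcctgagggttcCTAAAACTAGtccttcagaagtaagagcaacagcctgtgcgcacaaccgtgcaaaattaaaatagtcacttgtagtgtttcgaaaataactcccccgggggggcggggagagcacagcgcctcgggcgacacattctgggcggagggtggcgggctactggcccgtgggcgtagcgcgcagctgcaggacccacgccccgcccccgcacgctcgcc
Ldhb start: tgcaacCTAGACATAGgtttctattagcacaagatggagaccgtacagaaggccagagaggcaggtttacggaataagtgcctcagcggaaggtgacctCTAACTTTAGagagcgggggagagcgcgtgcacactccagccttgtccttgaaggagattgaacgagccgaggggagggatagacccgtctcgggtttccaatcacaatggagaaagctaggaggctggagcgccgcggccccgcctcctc
Fbp2 start: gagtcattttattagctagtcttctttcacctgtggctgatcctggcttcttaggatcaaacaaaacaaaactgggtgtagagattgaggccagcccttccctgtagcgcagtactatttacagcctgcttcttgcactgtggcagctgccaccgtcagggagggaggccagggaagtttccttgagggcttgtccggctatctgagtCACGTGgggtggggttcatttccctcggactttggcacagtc
Pfkm second start: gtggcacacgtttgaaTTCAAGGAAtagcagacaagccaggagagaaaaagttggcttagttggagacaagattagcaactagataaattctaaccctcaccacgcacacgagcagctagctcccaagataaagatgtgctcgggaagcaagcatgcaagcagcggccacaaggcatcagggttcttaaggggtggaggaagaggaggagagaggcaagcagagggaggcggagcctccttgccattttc

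The windows lie at chr2:11502091-11502340, chrX:102644247-102644496, chr6:142507958-142508207, chr13:62858401-62858650 and chr15:98108221-98108470. The first 4 genes are on the minus strand and *Pfkm* is on the plus strand. RefSeq windows were found for 33 of the 35 members, 48 in all, and both strands were searched. CACGTG was present in 12.5% of member windows (*Fbp2*, *Ldha*, *Pfkfb3*, *Pfkm*, *Ppp1r3c* and *Slc16a1*) against 6.02% of 32851 windows of all genes. The spaced motif was present in 6.25% (*Ldhb*, *Phka1* and *Ppp1r3a*) against 3.20%. Its middle bases are free, so it is not read as the site of a named factor. The BCL6 consensus TTCCTNGAA was present in 2.08% against 1.31%. It overlaps the wider motif TTCNNNGAA, found in 2.08% of member windows against 7.02%. A match is a description of letters and not of binding.

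Of the 36 rows, 31 reached 200 UMIs in myonuclei when both libraries were added and are compared below, as are 6976 genes in all. The other 5 rows fell short of 200 UMIs in myonuclei. *Slc2a1* (GLUT1, the basal glucose transporter) had 26 UMIs in the WT-labelled library and 38 in the KO-labelled library. *Hk1* (hexokinase 1) had 5 and 6, *Gpd1* (cytosolic glycerol 3-phosphate dehydrogenase) 63 and 60, *Stbd1* (a glycogen-binding protein) 16 and 13, and the second *Aldoa* row (ENSMUSG00000114515) 3 and 10. All member rows together took 1.55% of myonuclear UMIs in the WT-labelled library and 1.49% in the KO-labelled library.

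Levels of different genes can be set side by side only per length, here as CPM per kilobase of the gene's span, a rough scale since the RNA is nuclear and the counting of introns is not stated. On it the muscle isoform led each pair. *Slc2a4* (GLUT4, the insulin-responsive transporter) had 26.6 CPM per kilobase in the WT-labelled library and 33.1 in the KO-labelled library, against 0.101 and 0.135 for *Slc2a1*. *Hk2* had 4.50 and 8.06 against 0.0051 and 0.0056 for *Hk1*. *Slc16a3* (MCT4, a lactate exporter) had 10.1 and 12.97 against 1.41 and 1.20 for *Slc16a1* (MCT1, which also imports lactate). The highest level per length in both libraries belonged to *Gys1*, muscle glycogen synthase, with 42.2 and 54.0. *Aldoa*, aldolase A, came next in the WT-labelled library with 38.7 against 28.3 for *Pgam2*, muscle phosphoglycerate mutase, while in the KO-labelled library *Pgam2* had 39.0 and *Aldoa* 38.1. Between *Aldoa* and *Pgam2* in the WT-labelled library lay *Ppp1r3a*, *Ugp2*, *Phkg1*, *Pygm* and *Eno3*.

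To read the genes by fibre type, each myonucleus was assigned to the myosin heavy chain gene with most of its UMIs, *Myh4* for IIb, *Myh1* for IIx and *Myh2* for IIa. IIb nuclei numbered 701 in the WT-labelled library and 612 in the KO-labelled library, IIx nuclei 1156 and 1175, and IIa nuclei 236 and 482. A further 274 (11.4%) and 731 (23.7%) had no myosin heavy chain UMI. Type I nuclei were too few to use, at 2 and 19. The share of IIb nuclei was 29.1% (27.3 to 31.0) in the WT-labelled library and 19.8% (18.4 to 21.3) in the KO-labelled library, so each gene was also compared between libraries within a fibre type.

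IIb and IIa myonuclei differed in a set of members that included 2 subunits of phosphorylase kinase. Of the 31 members, 7 were at least 2-fold higher in IIb than in IIa in both libraries, against 3.94% of all genes, and 4 were at least 2-fold lower, against 7.51% of all genes. The 7 were *Pfkfb3*, *Phka1*, *Phkb*, *Gpd2*, *Ppp1r3c*, *Gpi1* and *Aldoa*, and the 4 were *Ldhb*, *Tbc1d4*, *Slc16a1* and *Gys1*. The median log2 ratio of IIb over IIa was 0.45 in the WT-labelled library and 0.72 in the KO-labelled library, against -0.03 and 0.02 over all genes.

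**Figure D1:**
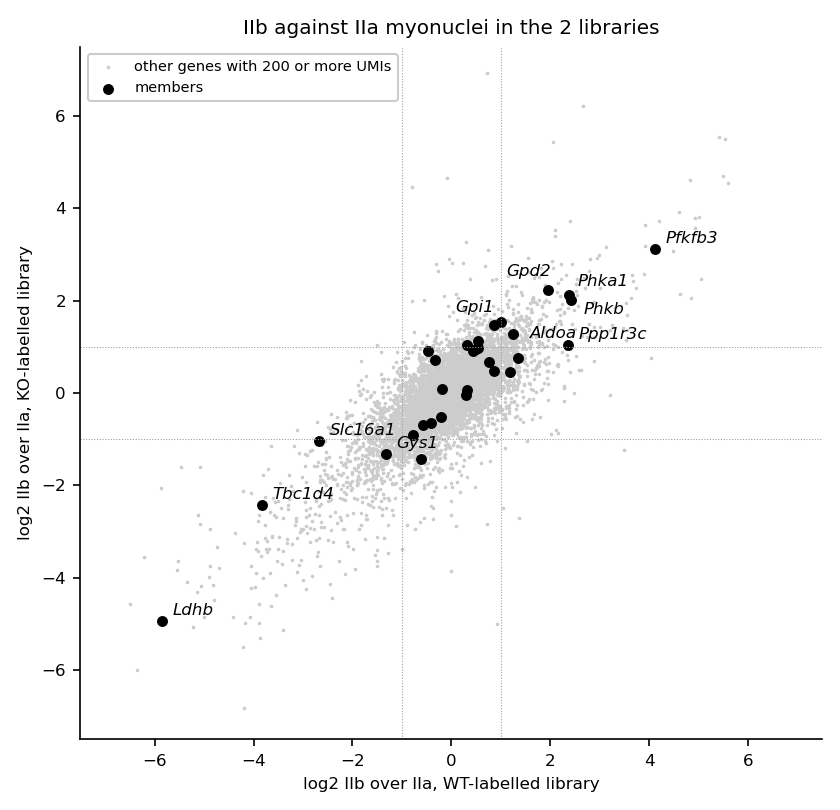
Log2 ratio of CPM in IIb over IIa myonuclei in the WT-labelled library (horizontal) and in the KO-labelled library (vertical), for the 31 members (black) and the other genes with at least 200 UMIs (grey). Dotted lines mark 2-fold, and the 11 named members lie beyond them in both libraries, with *Pfkfb3* at the upper right and *Ldhb* at the lower left, where the value of *Ldhb* in the WT-labelled library is a bound from 3 UMIs.

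*Pfkfb3* makes fructose 2,6-bisphosphate, the activator of phosphofructokinase, and lies on chromosome 2 at 11471433 to 11554077 (minus strand, GRCm38). It had 686 CPM in IIb, 65.5 in IIx and 39.5 in IIa myonuclei of the WT-labelled library. In the KO-labelled library it had 176 CPM in IIb, 47.8 in IIx and 20.3 in IIa. The IIb level was above the other fibre types in both libraries, and the log2 ratio of IIb over IIa was 4.12 (3.64 to 4.65) in the WT-labelled library and 3.12 (2.60 to 3.67) in the KO-labelled library. Its paralog *Pfkfb1* ran the other way, with 459 CPM in IIb, 917 in IIx and 789 in IIa of the WT-labelled library and 436, 770.3 and 818 in the KO-labelled library.

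Of the 6 roles, glycogen breakdown had the widest spread of summed level between fibre types. The summed level of *Pygm*, *Phka1*, *Phkb* and *Phkg1* was 6597 CPM in IIb, 2830.5 in IIx and 1818 in IIa myonuclei of the WT-labelled library, and 5166, 2533 and 1568 in the KO-labelled library. Both libraries thus had the order IIb, IIx, IIa. The sums are not scaled by length, and *Phka1* was the largest part of the IIb sum in both libraries. *Phka1*, the alpha subunit of muscle phosphorylase kinase (chromosome X, 102513975 to 102644246), had 3091 CPM in IIb, 988 in IIx and 590.2 in IIa of the WT-labelled library and 2391, 893.5 and 544.5 in the KO-labelled library. Its log2 ratio of IIb over IIa was 2.39 (2.26 to 2.52) and 2.13 (2.03 to 2.24). *Phkb*, the beta subunit (chromosome 8, 85840959 to 86061376), had log2 ratios of 2.42 (2.24 to 2.60) and 2.02 (1.86 to 2.19).

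The gamma subunit and the phosphorylase leaned the same way without passing 2-fold in both libraries. *Phkg1*, the catalytic subunit, had log2 ratios of IIb over IIa of 0.87 and 1.47. The span of *Phkg1* overlaps *Chchd2* on the same strand, so reads of the pair could be mixed. The same holds for *Pfkm* with *Gm26513* and for *Slc16a1* with *Gm43581* and *Gm43585*. *Pygm*, muscle glycogen phosphorylase, had 1.35 and 0.75. Its levels were 588 CPM in IIb, 323 in IIx and 230.2 in IIa of the WT-labelled library and 561, 411 and 334 in the KO-labelled library.

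**Figure D2:**
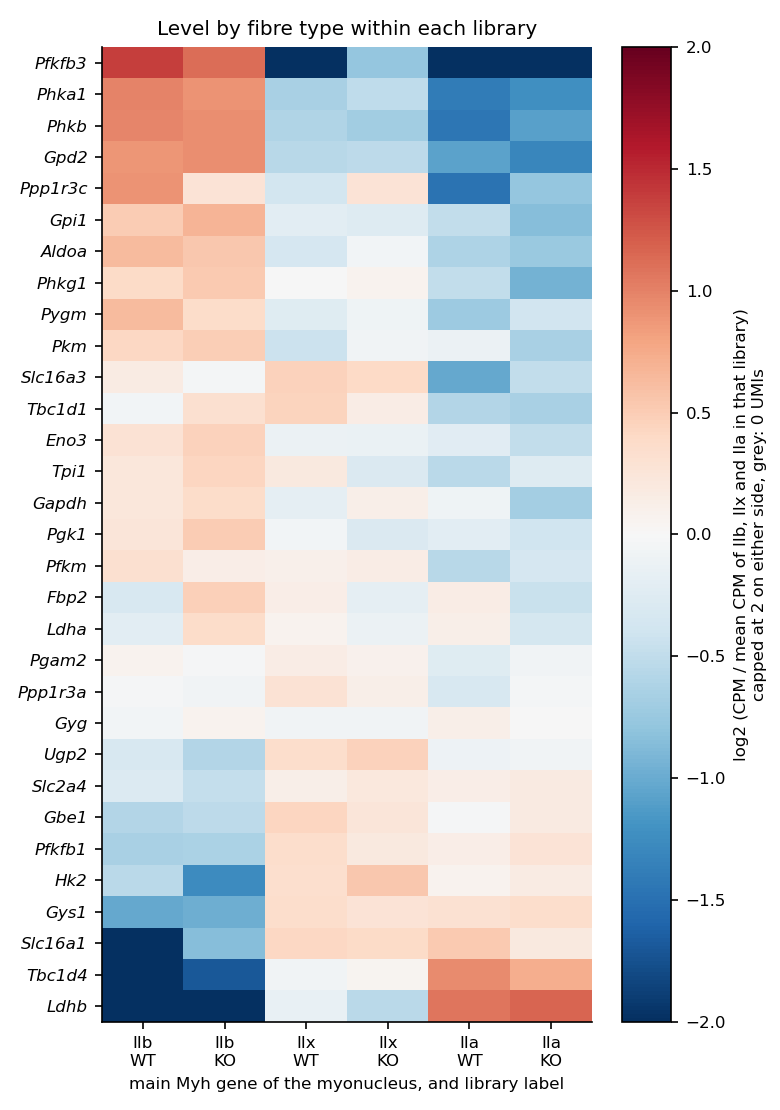
Log2 of each member's CPM in IIb, IIx and IIa myonuclei over the mean of the 3 in the same library, for the 31 members (rows, ordered by the mean log2 ratio of IIb over IIa) and each fibre type and library (columns). Red is above and blue below that mean, values are capped at 2, and the top rows are *Pfkfb3*, *Phka1* and *Phkb* and the bottom rows *Slc16a1*, *Tbc1d4* and *Ldhb*.

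Genes of glycogen synthesis did not share the IIb pattern. *Gys1* had 463 CPM in IIb, 1201 in IIx and 1156 in IIa of the WT-labelled library and 592, 1410.3 and 1490.4 in the KO-labelled library. The log2 ratio of IIb over IIa was -1.32 (-1.44 to -1.20) and -1.33 (-1.44 to -1.23), nearly the same value in both libraries. *Gbe1*, the branching enzyme, had -0.57 and -0.70, and *Ugp2*, which makes UDP-glucose, -0.22 and -0.52. *Gyg*, the glycogenin primer, had -0.18 and 0.08, with both intervals spanning 0.

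The scaffolds that bring protein phosphatase 1 to glycogen differed from each other. *Ppp1r3a*, the striated muscle subunit, had log2 ratios of IIb over IIa of 0.31 (0.20 to 0.41) and -0.04 (-0.12 to 0.05). *Ppp1r3c*, known as PTG, had 408 UMIs (163 CPM) in IIb, 307 (68.4 CPM) in IIx and 28 (31.6 CPM) in IIa of the WT-labelled library. In the KO-labelled library it had 202 UMIs (117 CPM) in IIb, 469 (117 CPM) in IIx and 95 (56.8 CPM) in IIa, so the step from IIb to IIx seen in the WT-labelled library was missing there. Its log2 ratio of IIb over IIa was 2.37 (1.82 to 2.98) and 1.04 (0.68 to 1.41).

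In glucose uptake, the pair of Rab GTPase-activating proteins that hold GLUT4 vesicles inside the cell took different fibre types. *Tbc1d4* (AS160) had 43.6 CPM in IIb, 308.5 in IIx and 622 in IIa of the WT-labelled library and 74.5, 253 and 399.7 in the KO-labelled library. The order IIa, IIx, IIb held in both libraries, with log2 ratios of IIb over IIa of -3.83 (-4.14 to -3.53) and -2.42 (-2.71 to -2.15). *Tbc1d1* had 1937 CPM in IIb, 2733 in IIx and 1340 in IIa of the WT-labelled library and 2668, 2361 and 1354 in the KO-labelled library. IIa was the lowest in both libraries, and the order of IIb and IIx was not the same in the 2 libraries. *Slc2a4* ran from 125 CPM in IIb to 167 in IIa of the WT-labelled library and from 128 in IIb to 204 in IIx of the KO-labelled library.

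Lactate genes split by isoform. *Ldhb*, the B chain (chromosome 6, 142490249 to 142507957), had 0 UMIs in IIb, 133 in IIx and 61 in IIa myonuclei of the WT-labelled library and 5, 109 and 148 in the KO-labelled library. These are 0, 29.6 and 68.8 CPM and 2.89, 27.1 and 88.6 CPM. Against a floor of 3 UMIs in the IIb nuclei, *Ldhb* was at least 57.3-fold higher in IIa than in IIb in the WT-labelled library, and the ratio was 30.6-fold in the KO-labelled library. *Ldha*, the A chain, showed no such step, with log2 ratios of IIb over IIa of -0.32 (-0.85 to 0.23) and 0.72 (0.24 to 1.21).

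The transporters were unlike each other too. *Slc16a1* had 16 UMIs (6.40 CPM) in IIb, 170 (37.9 CPM) in IIx and 36 (40.6 CPM) in IIa of the WT-labelled library, and 23 (13.3 CPM), 125 (31.1 CPM) and 46 (27.5 CPM) in the KO-labelled library. IIb was the lowest in both, with log2 ratios of IIb over IIa of -2.67 (-3.61 to -1.78) and -1.05 (-1.84 to -0.30). *Slc16a3* was lowest in IIa, with 50.8 CPM against 116 in IIb and 142 in IIx of the WT-labelled library, and 103.5 against 141 and 191 in the KO-labelled library. *Gpd2*, the mitochondrial arm of the glycerol phosphate shuttle, had 1019 UMIs (408 CPM) in IIb, 680 (151 CPM) in IIx and 93 (105 CPM) in IIa of the WT-labelled library and 755 (436 CPM), 640 (159 CPM) and 156 (93.3 CPM) in the KO-labelled library, with log2 ratios of IIb over IIa of 1.96 (1.65 to 2.28) and 2.22 (1.97 to 2.48).

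Among the enzymes of the glycolytic chain itself, *Aldoa* and *Gpi1* (glucose 6-phosphate isomerase) passed 2-fold, with log2 ratios of IIb over IIa of 1.25 and 1.28 for *Aldoa* and 1.01 and 1.53 for *Gpi1*. *Pfkm* (phosphofructokinase), *Eno3* (beta enolase), *Pkm* (pyruvate kinase), *Tpi1*, *Pgk1*, *Gapdh* and *Pgam2* ran from 0.32 to 0.87 in the WT-labelled library and from 0.06 to 1.13 in the KO-labelled library. The intervals of *Tpi1*, *Pgk1*, *Gapdh* and *Pgam2* spanned 0 in the WT-labelled library, as did that of *Pgam2* in the KO-labelled library. *Hk2* had -0.61 (-0.86 to -0.36) and -1.43 (-1.64 to -1.22).

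By the count past 2-fold, IIx myonuclei stood nearer to IIa than to IIb, an order that all genes shared. The median log2 ratio over members did not follow it. That median was 0.008 and 0.18 for IIb over IIx in the WT- and KO-labelled libraries, and 0.29 and 0.35 for IIx over IIa. Of the 31 members, 4 were at least 2-fold higher in IIb than in IIx in both libraries (*Pfkfb3*, *Gpd2*, *Phka1* and *Phkb*, against 1.59% of all genes) and 4 were at least 2-fold lower (*Tbc1d4*, *Ldhb*, *Slc16a1* and *Gys1*, against 5.29%). Between IIx and IIa, 1 member was at least 2-fold higher in IIx (*Ppp1r3c*, against 0.516%) and 1 was at least 2-fold lower (*Ldhb*, against 0.559%). *Slc16a3* and *Tbc1d1* came close to 2-fold higher in IIx, with log2 ratios of IIx over IIa of 1.49 and 0.88 for *Slc16a3* and 1.03 and 0.80 for *Tbc1d1*.

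Between the libraries, most members kept similar levels. Of the 31 members, 1 was at least 2-fold higher in the KO-labelled library (*Fbp2*, against 3.1% of all genes) and 1 was at least 2-fold lower (*Pfkfb3*, against 2.71%), shares near the background. The median log2 ratio of KO over WT was 0.03 over the members (0.07 with *Meg3*, *Rian* and *Mirg* left out of the totals) and -0.15 over all genes, and 23 members lay above the median of all genes. Scaling by the trimmed mean of M values (TMM) shifts every ratio up by 0.12, so ratios with the all-gene median subtracted are also given for the members that differed most.

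**Figure D3:**
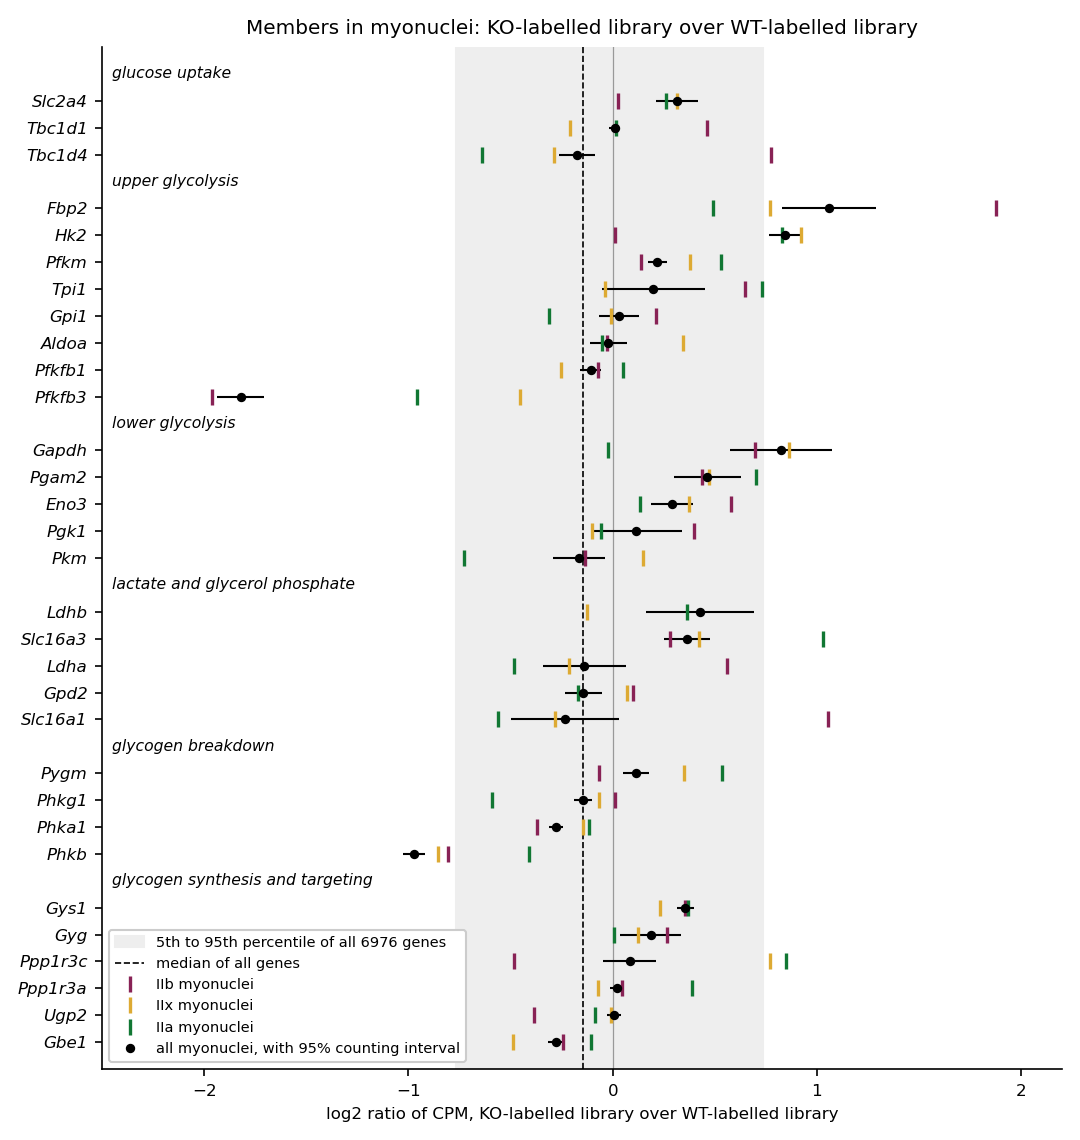
Log2 ratio of CPM in the KO-labelled library over the WT-labelled library for the 31 members, grouped by role. Black points with bars are all myonuclei with the 95% counting interval, coloured ticks are IIb, IIx and IIa myonuclei, the grey band spans the 5th to 95th percentile of all 6976 genes and the dashed line is their median. *Pfkfb3* and *Phkb* lie left of the band, and *Fbp2*, *Hk2* and *Gapdh* right of it.

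*Pfkfb3* was the lowest member. It had 2603 UMIs (295 CPM, 284 to 306) in the WT-labelled library and 803 UMIs (83.4 CPM, 77.7 to 89.4) in the KO-labelled library. The log2 ratio was -1.82 (-1.94 to -1.71), or -1.68 once the all-gene median is subtracted, and placed *Pfkfb3* at 6948 of 6976 genes counted from the highest ratio. Within fibre types the ratio was -1.96 (-2.14 to -1.78) in IIb, -0.45 (-0.73 to -0.19) in IIx and -0.96 (-1.68 to -0.23) in IIa myonuclei, and -2.28 in nuclei without a myosin heavy chain UMI. It was below 0 in all 5 myonuclear clusters with enough nuclei, from -2.29 to -0.54. After each nucleus was thinned to 1000 UMIs, 36.8% (33.2 to 40.5) of IIb nuclei of the WT-labelled library and 12.96% (10.4 to 15.9) of the KO-labelled library had a *Pfkfb3* UMI, against 61.5% and 23.9% without thinning at median depths of 3004 and 2393.5 UMIs. Thinning left out 6 and 18 shallower nuclei. The thinned share was 8.50% and 10.4% in endothelial-like nuclei, at median depths of 1400 and 1747.5 UMIs.

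*Phkb* was the next lowest. It had 8170 UMIs (925 CPM, 905 to 945) in the WT-labelled library and 4533 UMIs (471 CPM, 457 to 485) in the KO-labelled library, a log2 ratio of -0.97 (-1.03 to -0.92) or -0.83 with the all-gene median subtracted. The ratio was -0.81 in IIb, -0.86 in IIx and -0.41 (-0.64 to -0.18) in IIa myonuclei, and from -1.11 to -0.74 over the 5 clusters. Thinned, 77.0% of IIb nuclei of the WT-labelled library and 54.9% of the KO-labelled library had a *Phkb* UMI (93.6% and 79.9% unthinned), against 13.1% and 13.04% of endothelial-like nuclei (20.2% and 22.7% unthinned). The annotation places *Hm629797* within the span of *Phkb* on the same strand. The other subunits differed less between the libraries. *Phka1* had 14449 UMIs (1636 CPM, 1609 to 1663) and 12995 UMIs (1350.0 CPM, 1327 to 1373), with a ratio of -0.28 (-0.31 to -0.24), and *Phkg1* had 9156 UMIs (1037 CPM, 1015 to 1058) and 9020 UMIs (937 CPM, 918 to 957), with a ratio of -0.15 (-0.19 to -0.10).

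**Figure D4:**
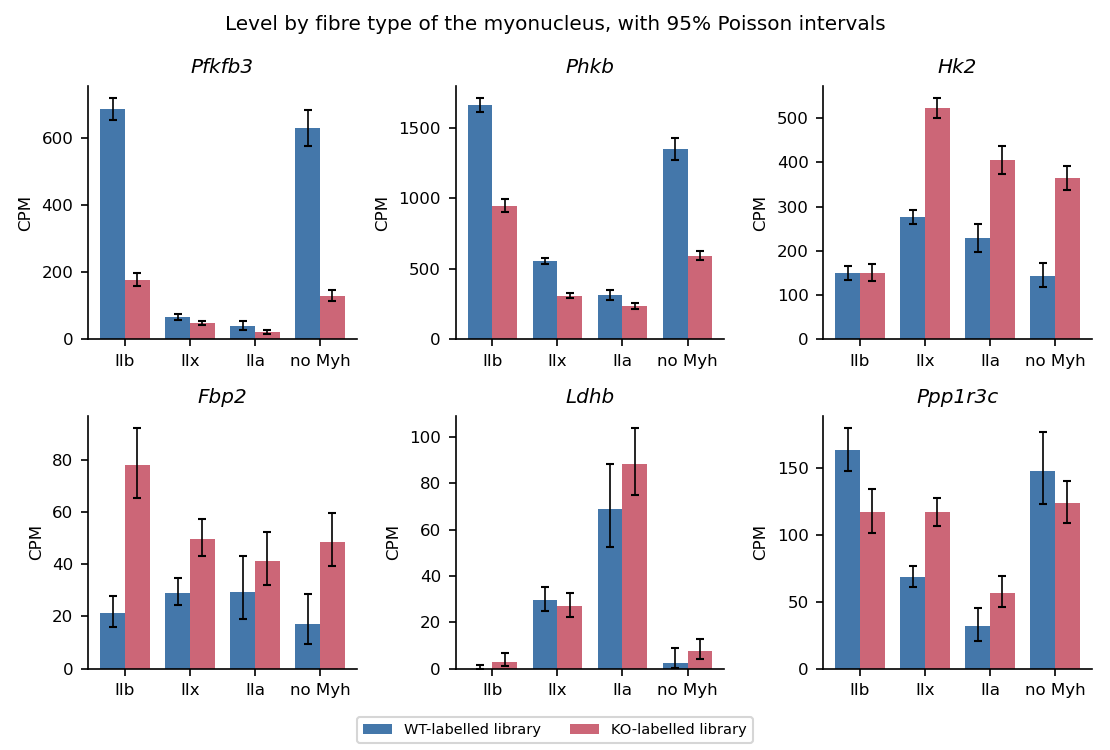
CPM of 6 members in IIb, IIx and IIa myonuclei and in myonuclei with no myosin heavy chain UMI, in the WT-labelled library (blue) and the KO-labelled library (red), with 95% Poisson intervals. *Pfkfb3* is 686 and 176 CPM in IIb, *Hk2* is 149 and 150.3 CPM in IIb but 276 and 523 in IIx, and *Ldhb* is 0 and 2.89 CPM in IIb.

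Other members below the median of all genes had ratios near it. *Gbe1* had 13431 UMIs (1521 CPM, 1495 to 1547) and 12056 UMIs (1252 CPM, 1230.2 to 1275), a log2 ratio of -0.28 (-0.32 to -0.24). *Slc16a1* had 246 UMIs (27.9 CPM, 24.5 to 31.6) and 228 UMIs (23.7 CPM, 20.7 to 27.0), a ratio of -0.23 (-0.50 to 0.03). *Tbc1d4* had 2146 UMIs (243 CPM, 233 to 254) and 2073 UMIs (215 CPM, 206 to 225), a ratio of -0.17 (-0.26 to -0.09). *Pkm* had 999 UMIs (113 CPM, 106 to 120.3) and 971 UMIs (101 CPM, 94.6 to 107), a ratio of -0.17 (-0.29 to -0.04). With the all-gene median subtracted, the ratios of *Tbc1d4* and *Pkm* were -0.03 and -0.02.

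*Fbp2*, muscle fructose 1,6-bisphosphatase (chromosome 13, 62836877 to 62858422), was the highest member. It had 226 UMIs (25.6 CPM, 22.4 to 29.1) in the WT-labelled library and 513 UMIs (53.3 CPM, 48.8 to 58.1) in the KO-labelled library, a log2 ratio of 1.06 (0.83 to 1.29) or 1.20 with that median subtracted. In IIb myonuclei the level was 21.2 CPM in the WT-labelled library and 78.0 in the KO-labelled library, a ratio of 1.88 (1.41 to 2.37). It was 0.77 (0.45 to 1.10) in IIx and 0.49 (-0.18 to 1.20) in IIa, and above 0 in all 5 clusters. Thinned to 1000 UMIs a nucleus, the ratio was 0.87, which is under 2-fold.

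*Hk2*, the insulin-regulated hexokinase (chromosome 6, 82725025 to 82774454), had unlike ratios across fibre types, though the difference between fibre types was not tested. It had 1963 UMIs (222 CPM, 212 to 232) in the WT-labelled library and 3835 UMIs (398 CPM, 386 to 411) in the KO-labelled library, a log2 ratio of 0.84 (0.76 to 0.92) or 0.99 with that median subtracted. In IIb myonuclei the levels were 149 and 150.3 CPM, a ratio of 0.01 (-0.22 to 0.24). In IIx they were 276 and 523 CPM, a ratio of 0.92 (0.82 to 1.02), and in IIa 228 and 404 CPM, a ratio of 0.83 (0.60 to 1.06). By cluster, the ratio was 1.28 in cluster 0, led by *Ppara* and *Myoz2*, and 1.23 in cluster 5, with *Nr4a3* and *Nr4a1* among its leading genes. It was -0.54 in cluster 1, led by *Tnfrsf19* and *Myom3*, and -0.11 and -0.35 in clusters 2 and 3. Thinned, 22.6% of IIx nuclei of the WT-labelled library and 31.6% of the KO-labelled library had an *Hk2* UMI (54.3% and 55.3% unthinned, at median depths of 3374 and 3067 UMIs). In endothelial-like nuclei the thinned count was 0 of 153 and 0 of 115, which allow up to 2.38% and 3.16% of nuclei with an *Hk2* UMI at this depth and do not limit the share that expresses the gene, and the unthinned share was 0% and 0.758%.

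*Gapdh* (glyceraldehyde 3-phosphate dehydrogenase) had 204 UMIs (23.1 CPM, 20.04 to 26.5) and 393 UMIs (40.8 CPM, 36.9 to 45.1), a log2 ratio of 0.82 (0.57 to 1.07). The ratio was 0.70 in IIb and 0.86 in IIx myonuclei, and -0.02 (-0.82 to 0.82) in IIa. It was above 0 in all 5 clusters. Thinned to 1000 UMIs a nucleus, the ratio over all myonuclei was 0.51. *Pgam2*, muscle phosphoglycerate mutase, had 523 UMIs (59.2 CPM, 54.3 to 64.5) and 786 UMIs (81.7 CPM, 76.0 to 87.6), a ratio of 0.46 (0.30 to 0.63). *Gapdh* has many processed copies in the mouse genome, and reads shared with them could be assigned to either.

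*Ldhb* had 202 UMIs (22.9 CPM, 19.8 to 26.2) and 296 UMIs (30.7 CPM, 27.3 to 34.5), a log2 ratio of 0.43 (0.16 to 0.69). Within IIx and IIa the ratios were -0.13 (-0.51 to 0.25) and 0.36 (-0.08 to 0.82), beside the larger number of IIa nuclei in the KO-labelled library, 482 against 236. *Slc16a3* had 1104 UMIs (125 CPM, 118 to 133) and 1547 UMIs (161 CPM, 153 to 169), a ratio of 0.36 (0.25 to 0.48). It was above 0 in each of the 3 fibre types and in all 5 clusters.

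*Gys1* had 8116 UMIs (919 CPM, 899 to 939) and 11323 UMIs (1176 CPM, 1155 to 1198), a log2 ratio of 0.36 (0.31 to 0.40). The ratio was 0.36 in IIb, 0.23 in IIx and 0.37 in IIa myonuclei. *Slc2a4* had 1328 UMIs (150.3 CPM, 142 to 159) and 1802 UMIs (187 CPM, 179 to 196), a ratio of 0.32 (0.21 to 0.42), with 0.03 in IIb, 0.31 in IIx and 0.26 in IIa. The remaining members with log2 ratios above the median of all genes were *Eno3* (0.29), *Pfkm* (0.22), *Tpi1* (0.20), *Gyg* (0.19), *Pgk1* (0.12), *Pygm* (0.11), *Ppp1r3c* (0.08), *Gpi1* (0.03), *Ppp1r3a* (0.02), *Tbc1d1* (0.01), *Ugp2* (0.01), *Aldoa* (-0.02), *Pfkfb1* (-0.11), *Ldha* (-0.14) and *Gpd2* (-0.14). In all 3 fibre types alike, 16 of the 31 members had a ratio above that fibre type's median of all genes, against 23.9% of all genes. The 16 include *Ldhb*, which has no finite ratio in IIb (0 UMIs in the WT-labelled library and 5 in the KO-labelled library) and was counted as above there. Below the median in all 3 were 2 members (*Pfkfb3* and *Phkb*), against 23.3% of all genes.

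Of 89 other genes of these pathways, 55 had at least 200 UMIs in myonuclei, and their median log2 ratio of KO over WT was -0.16, close to that of all genes. Among those at least 2-fold higher was *Prkag2* (a gamma subunit of AMP-activated kinase), with 244 UMIs (27.6 CPM) and 934 UMIs (97.0 CPM) and a ratio of 1.81 (1.61 to 2.02). At least 2-fold lower was *Pgm1* (ENSMUSG00000025791, phosphoglucomutase, which links glucose 1-phosphate to glucose 6-phosphate), with 1723 UMIs (195 CPM) and 891 UMIs (92.6 CPM) and a ratio of -1.08 (-1.19 to -0.96). *Pgm1* was lower within IIb (-0.74), IIx (-1.06) and IIa (-1.17) myonuclei. *Prkag2* was higher within each, by 0.62 in IIb, 2.13 in IIx and 0.87 in IIa.

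By list, the extremes of the log2 ratio were *Snap23* (0.09) and *Sort1* (-0.62) among 7 genes of glucose transport. Among 6 genes of other glycolytic isoforms the lowest was *Tigar* (-0.73). The extremes were *Ppp1cb* (0.32) and *Pgm1* (-1.08) among 12 of glycogen, and *Pdk1* (0.43) and *Mpc1* (-0.91) among 12 of pyruvate entry into mitochondria. They were *H6pd* (0.23) and *Rpe* (-0.45) among 6 of the pentose phosphate and hexosamine routes, and *Prkag2* (1.81) and *Epas1* (-0.70) among 12 regulators. *Mpc1*, a subunit of the mitochondrial pyruvate carrier, had 370 CPM (357 to 383) in the WT-labelled library and 197 CPM (188 to 206) in the KO-labelled library. In both libraries, 6 of the 55 were at least 2-fold higher in IIb than in IIa myonuclei, against 3.94% of all genes, and 4 were at least 2-fold lower, against 7.51%, a share near the background.

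Outside myonuclei, muscle RNA may be carried free in the suspension, so a level for it was set first. Nuclei of 6 other classes, named from their marker genes, held the myonuclear markers at 2.36 to 11.5% of the myonuclear level. The share was highest in nuclei like muscle stem cells. All of it was taken as free RNA. Whether part came from the nuclei themselves or from remaining doublets was not tested, and a level set too high would lower the counts below. A member was read as present in a class only where its whole interval lay above what that share of free RNA would give. In endothelial-like nuclei 19 of the 31 members lay above it in both libraries, against 79.3% of all genes. In nuclei like fibro-adipogenic progenitors (FAP-like) 16 did, against 90.1%, and in nuclei like muscle stem cells (MuSC-like) 7, against 77%. The count was 12 in macrophage-like nuclei against 66.9%, 16 in nuclei like pericytes or smooth muscle against 79%, and 5 in tenocyte-like nuclei against 66.3%, so the share of members was below that of all genes in each of the 6 classes. The rule compares each gene with its own myonuclear level, so genes high in myonuclei pass it less easily. *Hk1* was the member most clearly outside the fibres. It had 28 UMIs (71.4 CPM) in endothelial-like nuclei of the WT-labelled library and 23 UMIs (84.3 CPM) in those of the KO-labelled library, against 0.566 and 0.623 CPM in myonuclei.

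**Figure D5:**
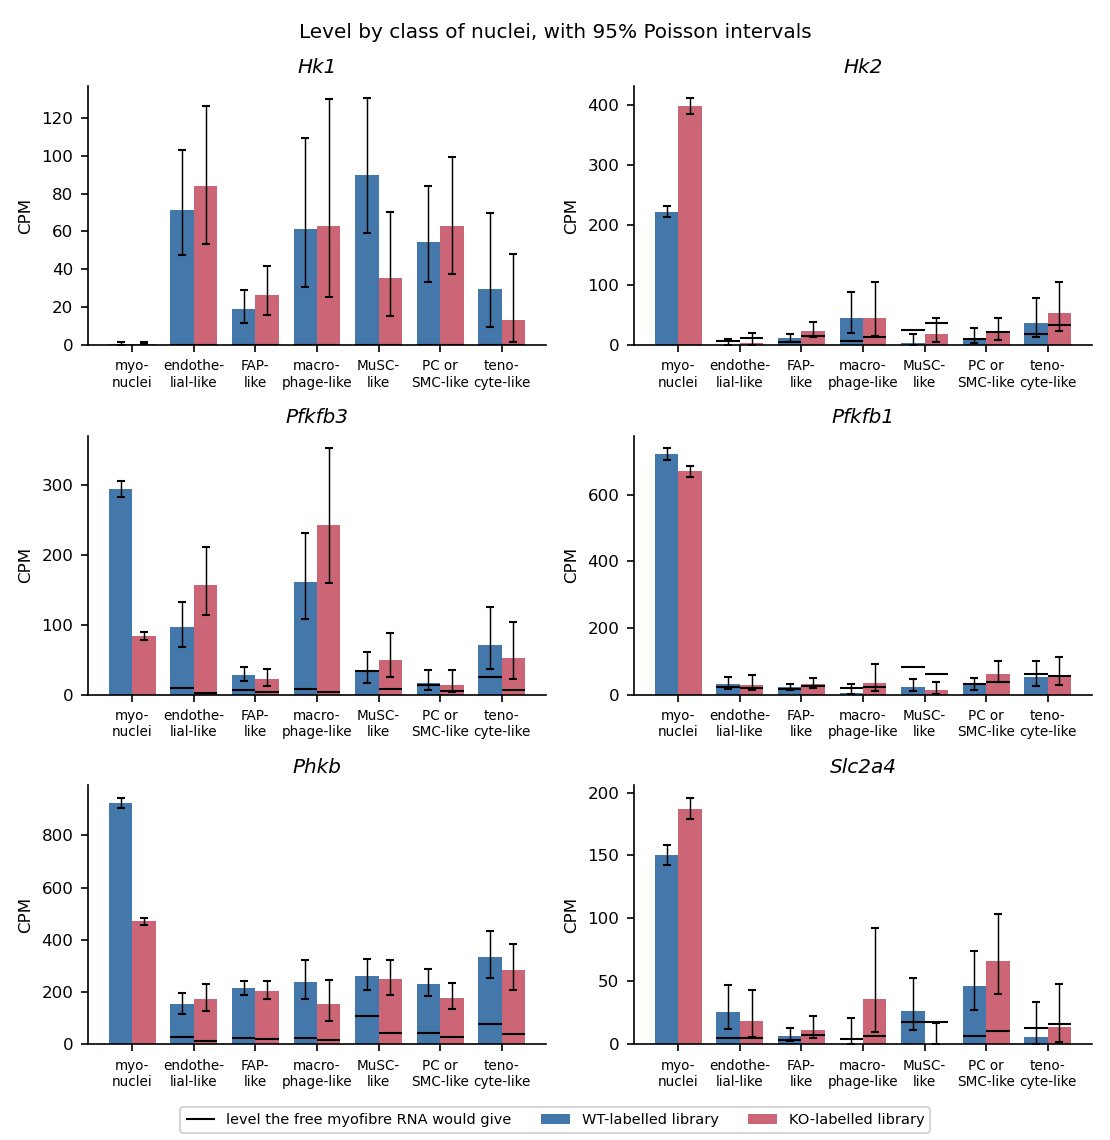
CPM of 6 members in myonuclei and in 6 other classes of nuclei (FAP, fibro-adipogenic progenitor; MuSC, muscle stem cell; PC or SMC, pericyte or smooth muscle cell), in the WT-labelled library (blue) and the KO-labelled library (red), with 95% Poisson intervals. Black lines mark the level that free myofibre RNA would give, and *Hk1* stands above it in each class while *Hk2* and *Pfkfb1* in endothelial-like nuclei lie at or near it.

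*Pfkfb3* was also present in other cells, with 38 UMIs (96.9 CPM, 68.5 to 133) and 43 UMIs (158 CPM, 114 to 212) in endothelial-like nuclei and 29 UMIs (162 CPM, 108 to 232) and 27 UMIs (243 CPM, 160.3 to 354) in macrophage-like nuclei of the WT- and KO-labelled libraries. In neither class was its level lower in the KO-labelled library, and the intervals of the 2 libraries overlapped. *Phkb* had 153 and 172 CPM in endothelial-like nuclei and 214 and 204 CPM in FAP-like nuclei, close values in the 2 libraries. *Hk2* had 0 UMIs and 1 UMI in endothelial-like nuclei. *Ldhb* reached 40.8 and 49.0 CPM in nuclei like pericytes or smooth muscle, and *Slc2a4* 46.3 and 66.4 CPM there.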

How the data were processed

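Nuclei of TA muscle were sorted with 7-AAD and sequenced as 1 library per genotype. Per the labels and the submitters' processing notes, the authors mapped reads to mm10 with Cell Ranger 7.0.0 and deposited whole UMI counts per gene and barcode, not normalized. Whether intronic reads were counted is not given in the sources used here, and the labels and the methods name different 10x kits.

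Nuclei with 200 to 5000 genes and at most 5% mitochondrial UMIs were kept, and doublets were removed with Scrublet in scanpy 1.11.5 at 0.8% per 1000 barcodes (115 and 134 nuclei). The libraries shared 6 barcode sequences. Seurat 5.3.0 clustered the nuclei (2000 variable genes, 30 components, RPCA, resolution 0.5) without the members, the other pathway genes and the genes that differed 2-fold between libraries. Of 17 clusters, 7 were myonuclear. Counts were summed per library and group and given as CPM with exact Poisson intervals, shares with exact Clopper-Pearson intervals and ratios with exact conditional intervals (Python 3.11.15, scipy 1.17.1, and edgeR 4.0.16 for TMM). These cover counting error only. The ratio intervals were tried on simulated Poisson counts, which share their model and hold no spread between nuclei or mice, so this says nothing about such spread. Called means at least 2-fold, among genes with at least 200 myonuclear UMIs. Full values are given for the 8 highest and 8 lowest members between libraries and the 8 most different between IIb and IIa, and the extremes of each pathway list. The members and lists were chosen with earlier results of these data known. Gene positions are from GENCODE M21 (GRCm38). The result of 1 pathway gene is not reported here.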

Additional observations from a re-analysis of the deposited data

Results flagged for a closer look

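When the KO-labelled library was set against the WT-labelled library, the 7 members named here differed in direction between fibre types. Each ratio was taken relative to all genes of that fibre type. The 7 are a selection. *Slc16a1* had 1.17 in IIb, -0.15 in IIx and -0.42 in IIa, and *Ldha* had 0.67, -0.08 and -0.34. In IIb, IIx and IIa alike, 16 of the 31 members lay above the all-gene median and 2 below. The shares of all genes were 23.9% and 23.3%. A difference in direction was thus common among all genes. With 1 library per genotype, the differences between fibre types were not tested. *Tbc1d4* had 0.89 in IIb, -0.15 in IIx and -0.49 in IIa myonuclei. *Tbc1d1* had 0.58 in IIb, -0.079 in IIx and 0.16 in IIa.

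*Ppp1r3c* went the other way, with -0.37 in IIb, 0.90 in IIx and 0.99 in IIa. *Phkg1* had 0.12 in IIb, 0.067 in IIx and -0.45 in IIa, and *Ugp2* had -0.27 in IIb and 0.13 in IIx. *Pfkfb1* had -0.12 in IIx and 0.20 in IIa, and *Pkm* had 0.28 in IIx and -0.59 in IIa.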

How the results depend on the processing

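No ratio of a 2-fold member reversed under the 15 alternatives. The log2 ratio of KO over WT ranged from -1.89 to -1.58 for *Pfkfb3*, from -0.98 to -0.76 for *Phkb*, from 0.72 to 0.99 for *Hk2* and from 0.87 to 1.20 for *Fbp2*. The median over members (0.03) was 0.15 with TMM scaling, 0.15 with median-of-ratios scaling, 0.14 over all nuclei and 0.18 with the all-gene median subtracted, the last chosen after seeing the data. Ratios of *Aldoa*, *Pfkfb1*, *Ldha*, *Gpd2*, *Ugp2* and *Ppp1r3a* crossed 0 between alternatives. Thinning to 1000 UMIs, which leaves fewer UMIs per gene, gave 0 members 2-fold higher in the KO-labelled library, 2 lower in IIb than IIa, 2 lower in IIb than IIx, 2 higher in IIx than IIa and 0 lower. With pure fibre types, 3 were higher in IIx than IIa. The count of members at least 2-fold higher in IIb than in IIa, 7 in the main setting, ran from 5 to 8 over 10 alternatives. No paired analysis was possible because each genotype has 1 library. Members under 200 UMIs could not be compared at this depth.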
